A study of Sus scrofa with 8 samples.

Results

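The genes described here are 10 transporters that carry bile acids or other bile components across the membranes of the hepatocyte. The rule that selects them uses their symbols and no expression value, and they were picked out of the 18103 genes and new transcripts listed in the table of FPKM, a level of fragments scaled to transcript length and to the mapped fragments of a library. The members were nevertheless chosen with earlier results of these data known. The paper lists SLC51B among its selected up-regulated transcripts from these libraries. All 10 symbols had a row, and 9 of them passed the filter on low values, which asked for 0.3 FPKM or more in 4 or more of the 8 libraries and kept 13175 genes. SLC51A did not pass and is described by its values, an exact test and a fit without the filter.

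Hepatic RNA came from male Landrace x Large White pigs and was sequenced in 8 libraries, each a pool of 2 pigs. The 4 pools of the initial state were taken from healthy animals of 4 months on the control diet, and the 4 pools of steatosis after 2 months of steatotic diet, when the pigs were 6 months old. That diet was deficient in methionine, restricted in choline, rich in saturated fat, and contained cholesterol and sodium cholate, itself a bile acid salt. The initial livers were sampled by biopsy under anaesthesia and the final ones after euthanasia of the pigs, so diet, age and mode of sampling cannot be told apart. All animals had been fasted overnight. The paper describes the steatosis group as the same animals after the diet, but it does not say which pigs formed each pool. A replicate is a pool, and each SD below is between pools.

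Bile acids are made from cholesterol in the hepatocyte, secreted into bile and mostly recovered by the intestine and returned to the liver in portal blood. SLC10A1 (NTCP) and SLCO1B3 (OATP1B3) take them up from blood at the basolateral, or sinusoidal, membrane. ABCB11 (BSEP) pumps bile acids across the canalicular membrane into bile, where ABCB4 (MDR3) places phosphatidylcholine, ABCC2 (MRP2) exports conjugates such as bilirubin glucuronides, and ATP8B1 (FIC1) flips phospholipids to the inner leaflet. ABCC3 (MRP3), ABCC4 (MRP4) and the heteromeric carrier of SLC51A and SLC51B (OSTα and OSTβ) return bile acids to blood, a route that is minor in a healthy liver and is known to gain weight when bile acids accumulate. The nuclear receptor FXR, encoded by NR1H4, is activated by bile acids, and ABCB11, SLC51A, SLC51B and the repressor gene NR0B2 (SHP) are among its known targets.

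Pool 1 of the initial state stood apart from the rest. Its 7 stomach mucosa markers summed to 1542.54 FPKM, against 6.28 to 29.19 in the other initial pools and 6.23 to 6.95 in steatosis, and skeletal muscle markers summed to 2638.85 FPKM, against 0.81 to 19.92 and 0.10 to 0.35. Hepatocyte markers summed to between 57284 and 89622 FPKM in the initial state and between 51133 and 62660 in steatosis, led by ALB, so the libraries were those of liver. Depth, read from the step between the lowest FPKM values, lay between 89.5% and 100% of the deepest library. The groups were compared by limma on log2(FPKM + 0.1), without pairing of the pools, with Benjamini-Hochberg adjustment over all 13175 genes. The median log2 fold change of these genes was 0.25, and it was -0.012 after median ratio scaling, in which a library is divided by the median of its ratios to the average library. Changes below are to be read against this general shift. The p-values measure the spread between these pools only.

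By the limits of 0.01 on the adjusted p and 1 on the log2 fold change, 2 of the 9 tested transporters, SLC51B and ABCC4, were higher in steatosis and 0 were lower. Over all tested genes these limits called 6.01% higher and 0.334% lower. With an adjusted p under 0.05 at any size, ABCB11 joined them, which made 3 of 9 higher and 0 lower beside 26.7% and 2.28% of all tested genes, so this second count lay close to that of genes in general. At an unadjusted p under 0.05 there were 5 higher and 0 lower, beside 37.8% and 4.13% of all tested genes. The median log2 fold change of the 9 transporters was 0.36. The pools of both states did not overlap for 4 of the 10 transporters, all higher in steatosis, a pattern found in 23% of all listed genes. It held for 3 of the 9 tested, beside 29.6% of all tested genes, and 0 of 9 were lower without overlap, beside 2.53%. Without pool 1 of the initial state the counts were again 2 and 3. SLC51B was known to be higher in these libraries when the members were chosen, so counts that include it are not an independent test. Below, rose is used for an adjusted p under 0.05.

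**Figure D1:**
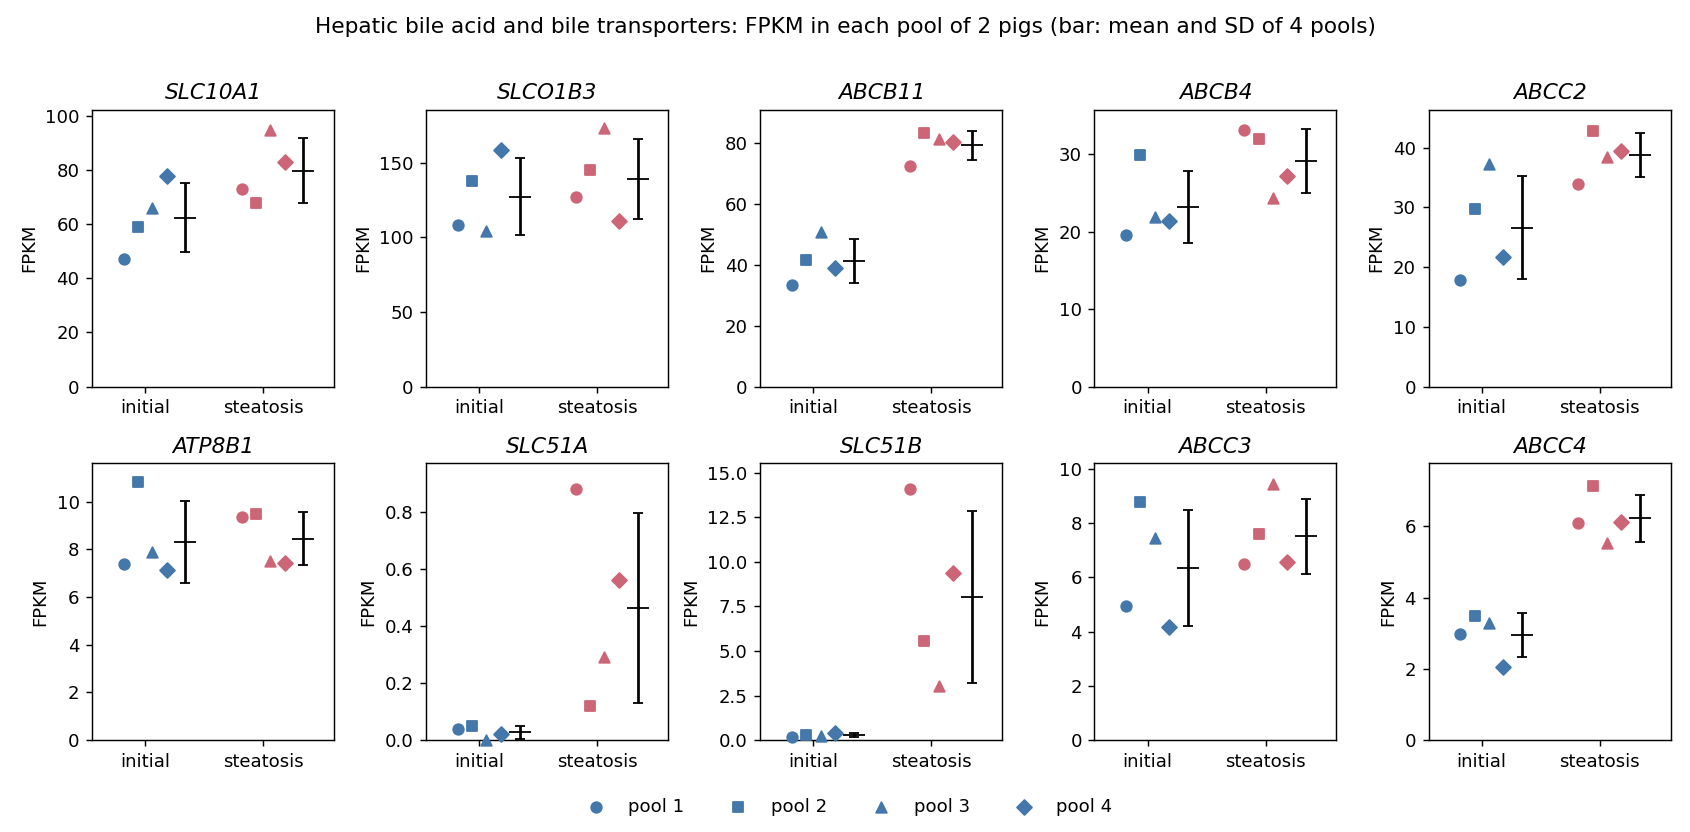
FPKM (vertical axes, linear from 0) of each of the 10 transporters in the 4 initial pools (blue) and the 4 steatosis pools (red), with 1 symbol for each pool number and bars for the mean and SD of 4 pools. The pools of both states do not overlap for ABCB11, SLC51A, SLC51B and ABCC4, and they overlap for the other 6 transporters.

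The regulated carrier of basolateral export, SLC51A with SLC51B, had the greatest contrast between the states. SLC51B (gene 100525144, Sscrofa11.1 chromosome 1, positions 163081145 to 163089491) encodes the short subunit that the carrier needs to reach the membrane. Its levels in initial pools 1 to 4 were 0.18, 0.31, 0.21 and 0.42 FPKM, and in steatosis pools 1 to 4 they were 14.09, 5.58, 3.01 and 9.35 FPKM. Every steatosis pool was thus above every initial pool, and the steatosis pools differed widely among themselves. The mean level rose from 0.28 ± 0.109 to 8.01 ± 4.82 FPKM (SD, n = 4 pools each), a log2 fold change of 4.24 (SE 0.42, limma adjusted p = 0.000149), and the exact permutation test of the means gave a two-sided p of 0.0286, the smallest that 4 pools against 4 allow. Ordered by mean FPKM among all listed genes, SLC51B moved from place 13093 to place 5236. A pseudocount of 1 in place of 0.1 gave a log2 fold change of 2.65, since the initial levels lie near the pseudocount. Without pool 1 of the initial state it was 4.11 (limma adjusted p = 0.000415).

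SLC51A (gene 100512372, chromosome 13, positions 133851775 to 133869753) encodes the long, membrane-spanning subunit. It was listed at 0.04, 0.05, 0.00 and 0.02 FPKM in the initial pools and at 0.88, 0.12, 0.29 and 0.56 FPKM in the steatosis pools. At its transcript length of 1566 bases the most frequent low FPKM value was 0.03 or 0.04, about the worth of a single fragment, so the initial levels stand for very few fragments. The states did not overlap (exact permutation p = 0.0286, two-sided), with means of 0.0275 ± 0.0222 and 0.463 ± 0.332 FPKM (SD, n = 4). In the fit without a filter, over 18103 genes, the log2 fold change was 1.95 (SE 0.41, limma adjusted p = 0.0123), a value that depends on the pseudocount, and 18% of genes were called higher there at an adjusted p under 0.05. Even in steatosis SLC51A was the least abundant of the 10 transporters, and FPKM of SLC51B was 10.4 to 46.5 times that of SLC51A within the same library. Both subunits were highest in steatosis pool 1 and next highest in pool 4, but the lowest pool was pool 3 for SLC51B and pool 2 for SLC51A.

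SLC51B overlaps other genes in the RefSeq annotation. A stretch of 1447 bases of its span is shared with the non-coding gene LOC110261747, which is not analysed here, and 52 bases with RASL12, which was listed at 2.45 to 3.81 FPKM in the initial state and 3.49 to 4.51 FPKM in steatosis. These overlaps are of whole gene spans, introns included, while expression was estimated on transcripts. Whether exons overlap or fragments were shared was not tested, and the strand used in counting is not given in the sources used here. ATP8B1, 18105 bases away on the same chromosome, is the nearest protein-coding gene on the other side and its own levels overlapped between the states. Of the other members, ATP8B1 shares 5945 bases of its span with LOC110261747, ABCC3 shares 177 bases with ANKRD40, and ABCC4 holds the 2267 bases of the pseudogene LOC110255844.

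ABCC4 (gene 100152536, chromosome 11, positions 64089149 to 64309831) exports bile acids together with glutathione, and also cyclic nucleotides. Its levels were 2.97, 3.47, 3.28 and 2.06 FPKM initially and 6.09, 7.14, 5.53 and 6.11 FPKM in steatosis. The lowest steatosis pool was above the highest initial pool, and the pools within each state lay close together. The mean level rose 2.11-fold, from 2.945 ± 0.625 to 6.22 ± 0.671 FPKM (SD, n = 4), with a log2 fold change of 1.07 (SE 0.17, limma adjusted p = 0.00168) and an exact permutation p of 0.0286. Its adjusted p by limma stayed under 0.01 in all 15 refits, at 0.00124 to 0.00716. The limit of 1 on the log2 fold change was missed at 0.81 with median ratio scaling, 0.84 with upper quartile scaling, 0.88 with a pseudocount of 1 and 0.92 without pool 4 of the initial state.

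ABCC3 (gene 100513231, chromosome 12, positions 26920764 to 26978389), the exporter of glucuronides and bile acids to blood, did not pass the test. Its levels ran from 4.17 to 8.79 FPKM in the initial pools and from 6.48 to 9.45 FPKM in steatosis, with a log2 fold change of 0.29 (95% interval -0.23 to 0.81, limma adjusted p = 0.374). In the initial state ABCC3 exceeded ABCC4, ABCC4 exceeded SLC51B and SLC51B exceeded SLC51A in every pool and without overlap of their ranges. In steatosis ABCC3 exceeded ABCC4 in each pool and SLC51A lay below the other exporters, while SLC51B was above both ABCC3 and ABCC4 in pools 1 and 4 and below both in pools 2 and 3. Summed per library, the 4 exporters held 6.67 to 12.62 FPKM in the initial state and 18.28 to 27.54 FPKM in steatosis.

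Of the canalicular transporters, ABCB11 alone passed the test at an adjusted p under 0.05. ABCB11 (gene 100518154, chromosome 15, positions 75402296 to 75487092) was at 33.24, 41.57, 50.82 and 38.97 FPKM in the initial pools and at 72.33, 83.14, 81.04 and 80.16 FPKM in steatosis. There was no overlap, and each steatosis pool was above the initial pool of the same number. The mean level rose 1.92-fold, from 41.15 ± 7.33 to 79.2 ± 4.73 FPKM (SD, n = 4), with a log2 fold change of 0.96 (SE 0.13, limma adjusted p = 0.000658) and an exact permutation p of 0.0286. With median ratio scaling, which called 11.6% of genes higher and 9.74% lower at an adjusted p under 0.05, the log2 fold change was 0.68 (limma adjusted p = 0.0056). It passed the limit of 1 only without pool 3 of the initial state, where it was 1.06. The difference of its means was larger in FPKM than those of SLC51B and ABCC4, and its initial level was far higher than theirs.

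ABCC2 (gene 397535, chromosome 14, positions 110955698 to 111038898) was at 17.88, 29.68, 37.21 and 21.73 FPKM in the initial pools and at 33.93, 42.87, 38.51 and 39.48 FPKM in steatosis. Of the steatosis pools 3 were above all initial pools, and initial pool 3 was above steatosis pool 1. The means were 26.6 ± 8.60 and 38.7 ± 3.69 FPKM (SD, n = 4), with a log2 fold change of 0.59 (95% interval 0.13 to 1.04, limma adjusted p = 0.0542, exact permutation p = 0.0571). This result lay at the limit. With the pool number as a replicate block the limma adjusted p was 0.0268, without initial pool 3 it was 0.0119, and with median ratio scaling it was 0.256.

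ABCB4 (gene 100144586, chromosome 9, positions 93171371 to 93262124) ran from 19.50 to 29.89 FPKM in the initial pools and from 24.27 to 33.12 FPKM in steatosis. Its log2 fold change was 0.34 (95% interval 0.00 to 0.67, limma adjusted p = 0.12), and it passed 0.05 only without initial pool 2 (adjusted p = 0.0286). ATP8B1 (gene 100153006, chromosome 1, positions 162936209 to 163063040) ran from 7.12 to 10.84 FPKM in the initial pools and from 7.44 to 9.49 FPKM in steatosis, with means of 8.31 ± 1.72 and 8.45 ± 1.12 FPKM (SD, n = 4). Its log2 fold change of 0.035 (95% interval -0.31 to 0.38, limma adjusted p = 0.88) turned to -0.24 with median ratio scaling. The 4 canalicular transporters together held 78.0 to 117.87 FPKM in the initial pools and 148.72 to 167.45 FPKM in steatosis, most of the difference being that of ABCB11.

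Both uptake carriers stayed abundant and neither passed the test. SLC10A1 (gene 100153302, chromosome 7, positions 93400037 to 93421989), the sodium-dependent carrier of conjugated bile acids, was at 47.08, 58.85, 66.02 and 77.79 FPKM in the initial pools and at 72.95, 67.76, 94.99 and 83.00 FPKM in steatosis. The groups overlapped, although each steatosis pool exceeded the initial pool of its own number. The means were 62.4 ± 12.9 and 79.7 ± 12.01 FPKM (SD, n = 4), with a log2 fold change of 0.36 (95% interval 0.00 to 0.72, limma adjusted p = 0.117, exact permutation p = 0.114). It was 0.089 with median ratio scaling, and the limma adjusted p was 0.0487 without initial pool 4.

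SLCO1B3 (gene 100620829, chromosome 5, positions 52137454 to 52206236), a sodium-independent carrier of bile acids and other organic anions, was the most abundant of the 10 in both states. It was at 108.23, 137.65, 104.14 and 158.79 FPKM in the initial pools and at 127.33, 145.24, 173.09 and 111.19 FPKM in steatosis. Pool 4 went down and the other pools up between the states. The log2 fold change of 0.13 (95% interval -0.25 to 0.51, limma adjusted p = 0.583) turned to -0.14 with median ratio scaling. For neither uptake carrier does the missed threshold show equal expression, as the intervals allow changes of up to 0.72 and 0.51 on the log2 scale.

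**Figure D2:**
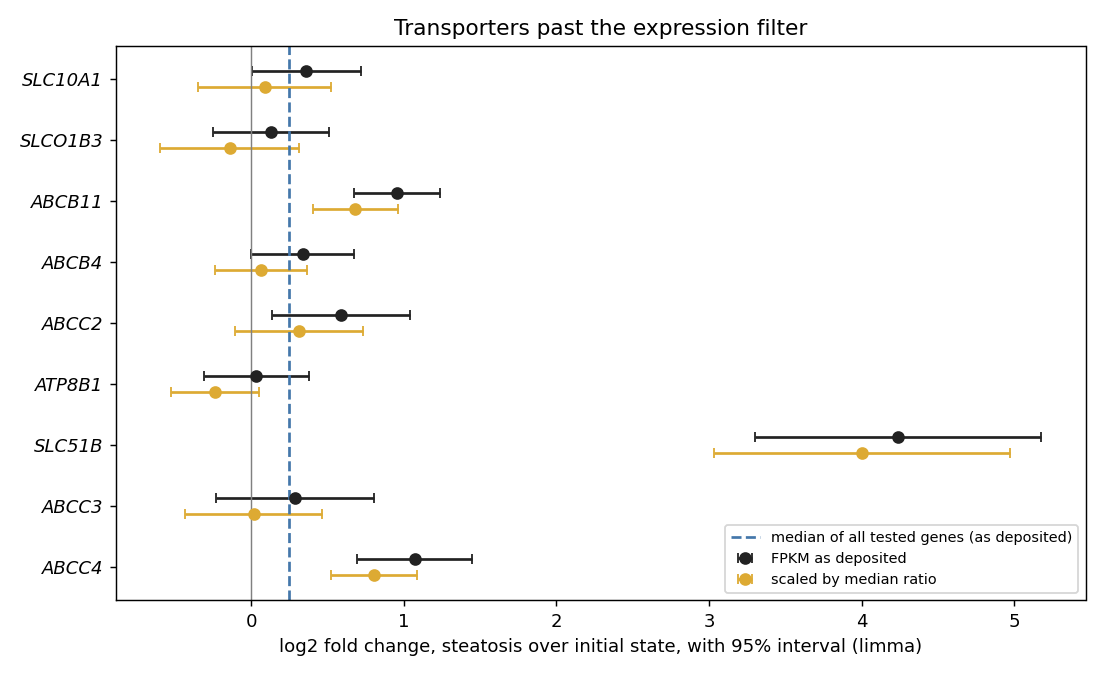
Log2 fold change of steatosis over the initial state (horizontal axis, points) with its 95% interval from limma (bars) for the 9 transporters past the filter, from the FPKM as deposited (black) and after median ratio scaling (yellow), with the median of all tested genes dashed. SLC51B lies at 4.24, ABCC4 and ABCB11 near 1, and the yellow intervals of the other 6 transporters include 0.

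Ranked by level, the order in the initial state was SLCO1B3, SLC10A1, ABCB11, ABCC2, ABCB4, ATP8B1, ABCC3, ABCC4, SLC51B and SLC51A. Ranges of neighbours overlapped from SLC10A1 through ABCB4 and between ATP8B1 and ABCC3, although within each of the 4 pools SLC10A1 exceeded ABCB11, ABCB11 exceeded ABCC2 and ATP8B1 exceeded ABCC3. ABCC2 exceeded ABCB4 in 2 of the 4 pools. In steatosis the ranges of ABCB11 and SLC10A1 overlapped, with SLC10A1 higher in 3 of 4 pools, and ABCB11 stood clear of ABCC2, which in turn stood clear of ABCB4. SLC51B lay among ATP8B1, ABCC3 and ABCC4, with ranges that overlapped.

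Ratios within a library do not depend on how libraries are scaled, and they are given as values without a test. The FPKM ratio of ABCB11, the canalicular pump, to SLC10A1, the basolateral uptake carrier, was 0.706, 0.706, 0.77 and 0.501 in the initial pools and 0.992, 1.23, 0.853 and 0.966 in steatosis. These values did not overlap. The ratio of ABCB11 to SLCO1B3, the other uptake carrier, ran from 0.245 to 0.488 in the initial pools and from 0.468 to 0.721 in steatosis, with overlap. That of ABCC4 to SLC10A1 ran from 0.0265 to 0.0631 and from 0.0582 to 0.105, also with overlap. Those of SLC51B to SLC10A1 (0.00318 to 0.0054, then 0.0317 to 0.193) and of ABCB11 to ABCC2 (1.37 to 1.86, then 1.94 to 2.13) did not overlap. The ratio of ABCB11 to ABCB4, which secretes the phospholipid that accompanies bile acids in bile, ran from 1.39 to 2.32 in the initial pools and from 2.18 to 3.34 in steatosis, with overlap. The ratio of ABCC4 to ABCC3 ran from 0.395 to 0.599 and from 0.585 to 0.942, again with overlap, while that of SLC51B to ABCC4 ran from 0.0606 to 0.204 and from 0.544 to 2.31 without overlap.

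**Figure D3:**
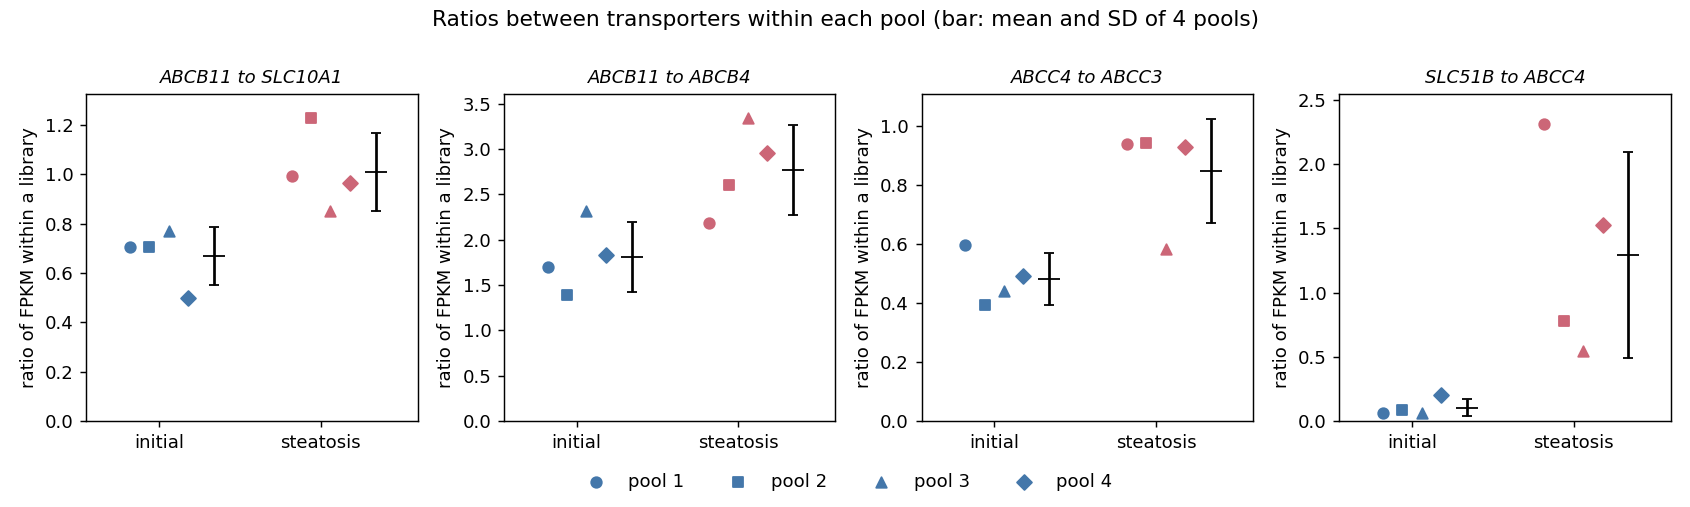
FPKM ratios between pairs of transporters within each library (vertical axes, linear from 0) in the 4 initial pools (blue) and the 4 steatosis pools (red), with bars for the mean and SD of 4 pools. ABCB11 to SLC10A1 lies between 0.501 and 0.77 in the initial state and between 0.853 and 1.23 in steatosis, and SLC51B to ABCC4 also does not overlap, whereas the other pairs shown do.

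Between pools of the same number, the difference in log2(FPKM + 0.1) of SLC51B was 5.66, 3.79, 3.33 and 4.18 for pools 1 to 4, and that of SLC51A was 2.81, 0.55, 1.96 and 2.46. ABCB11 differed by 0.67 to 1.12 on this scale and ABCC4 by 1.01, 1.02, 0.74 and 1.52. For SLC51B, ABCB11 and ABCC4 the difference was smallest in pool 3. The likeness between genes was described by Pearson's r of their deviations from the group means over the 8 libraries, with no test, since pools of the same number may share pigs and 8 points give high values among 12116 candidates. The genes most like SLC51B were SLA-8 (0.98), an MHC class I gene, KLB (0.97), the co-receptor of FGF19 in the liver, and VPS51 (0.97). KLB itself was at 2.82, 3.53, 2.54 and 3.88 FPKM initially and at 8.56, 3.58, 2.14 and 4.77 FPKM in steatosis, and it did not pass the test. ABCB11 was most like CCR2 (0.99), OIP5 (0.99) and PTPRC (0.99), and among the transporters it was most like ABCC2 (0.97). SLC10A1 was most like OGFOD3 (0.96), ACVR1B (0.95) and APOA2 (0.94), and SLC51A was most like RPL13A (0.95), COPZ2 (0.95) and SAT1 (0.95). SLC51A and SLC51B had an r of 0.66 with each other.

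Other genes of bile acid handling were taken from lists. At an adjusted p under 0.05, 26.7% of all tested genes were higher and 2.28% lower. The counts of these lists, and of the marker lists further below, are to be read beside those shares. Of 6 other canalicular pumps tested, 2 rose and 0 fell at an adjusted p under 0.05. ABCG5, which with ABCG8 secretes cholesterol into bile, rose from between 3.73 and 6.15 FPKM to between 9.59 and 11.86 FPKM, a log2 fold change of 1.17 (limma adjusted p = 0.000662), and this was 0.90 with median ratio scaling. Its partner ABCG8 ran from 8.71 to 16.46 FPKM and from 11.83 to 16.36 FPKM, and its log2 fold change of 0.13 (adjusted p = 0.658) turned to -0.14 with median ratio scaling. ABCB1, a drug efflux pump and the chromosomal neighbour of ABCB4, had a log2 fold change of 0.17 (adjusted p = 0.432), which turned to -0.10 with median ratio scaling.

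Of 9 other basolateral carriers, 4 rose and 0 fell at that limit, beside 26.7% and 2.28% of all tested genes. They were ABCA1, the exporter of cholesterol to apolipoprotein A1, with a log2 fold change of 1.69 (limma adjusted p = 0.000181), ABCC1 with 1.095 (adjusted p = 0.00533), ABCC5 with 1.0003 (adjusted p = 0.000729) and SLCO2B1 with 0.74 (adjusted p = 0.022). ABCA1 was at 3.31 to 4.69 FPKM in the initial pools and at 9.85 to 14.75 FPKM in steatosis. With median ratio scaling ABCA1 was the only one of the 5 genes called by the limits of 0.01 and 1 in these lists that kept that call, with a log2 fold change of 1.42. ABCC1 had an adjusted p of 0.0133 and SLCO2B1 of 0.164 under that scaling. ABCC1, ABCC4 and ABCC5 are also found outside hepatocytes, and the libraries are of whole liver.

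Of 10 genes of canalicular trafficking and scaffolds, 4 rose and 0 fell at an adjusted p under 0.05, and 0 passed the limits of 0.01 and 1. They were EZR, RDX, CLDN1 and STX3. CLDN1, a tight junction protein, had a log2 fold change of 0.33 (limma adjusted p = 0.0456), and none of the 4 passed with median ratio scaling. Without pool 1 of the initial state RDX and CLDN1 did not pass, with adjusted p of 0.0952 and 0.0939. PDZK1, a scaffold, ran from 39.02 to 58.70 FPKM and from 38.60 to 48.25 FPKM. Its log2 fold change of -0.29 (adjusted p = 0.146) was -0.42 (adjusted p = 0.0165) without pool 1 of the initial state and -0.56 (adjusted p = 0.0295) with median ratio scaling. Under that scaling 9.74% of all tested genes were lower at an adjusted p under 0.05. No change in the trafficking or location of the transporters can be read from RNA.

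Of 13 bile acid receptors and regulators tested, 5 rose and 1 fell at that limit. NR1H4 was at 40.51, 45.01, 44.29 and 39.59 FPKM in the initial pools and at 45.24, 41.33, 47.96 and 42.61 FPKM in steatosis, with a log2 fold change of 0.06 (limma adjusted p = 0.607). The gene that fell was NR0B2, at 34.68, 16.95, 17.52 and 7.69 FPKM initially and at 4.86, 6.33, 7.31 and 6.39 FPKM in steatosis. For NR0B2 the log2 fold change was -1.43 (limma adjusted p = 0.0173), and it was -1.09 (adjusted p = 0.0203) without pool 1 of the initial state, which held the highest value. NR0B2 and NR1H4 were named after their values were seen. NR1H3, the oxysterol receptor LXRα, rose from between 56.08 and 73.59 FPKM to between 93.40 and 97.76 FPKM, a log2 fold change of 0.54 (adjusted p = 0.00294), and 0.27 (adjusted p = 0.0811) with median ratio scaling. HNF4A, a hepatocyte factor, had a log2 fold change of 0.044 (adjusted p = 0.757), turning to -0.23 with that scaling. The other genes that rose were GPBAR1, NFE2L2, FGFR4 and RXRA, of which none passed with that scaling, and FGFR4 also did not pass without pool 1 of the initial state (adjusted p = 0.0795).

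Of 10 genes of bile acid synthesis and conjugation, 2 rose and 0 fell. CYP7A1, the rate-limiting enzyme of the classical pathway, rose from 11.79, 4.77, 8.91 and 12.62 FPKM to 50.78, 18.55, 48.09 and 36.40 FPKM, without overlap, a log2 fold change of 1.99 (SE 0.37, limma adjusted p = 0.00362). With median ratio scaling it was 1.72 (adjusted p = 0.0172). CYP27A1, which starts the alternative pathway, had a log2 fold change of 0.55 (adjusted p = 0.00577) and was 0.28 (adjusted p = 0.218) with that scaling. AKR1D1 and SULT2A1, the 5β-reductase and the bile acid sulfotransferase, had log2 fold changes of -0.27 (adjusted p = 0.0874) and -0.53 (adjusted p = 0.0713). With median ratio scaling both passed as lower, at -0.54 (adjusted p = 0.00807) and -0.80 (adjusted p = 0.0333). That scaling called 9.74% of all tested genes lower at an adjusted p under 0.05. SULT2A1 also passed with the replicate block (adjusted p = 0.0376), and it was at -0.33 (adjusted p = 0.113) without pool 1 of the initial state.

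**Figure D4:**
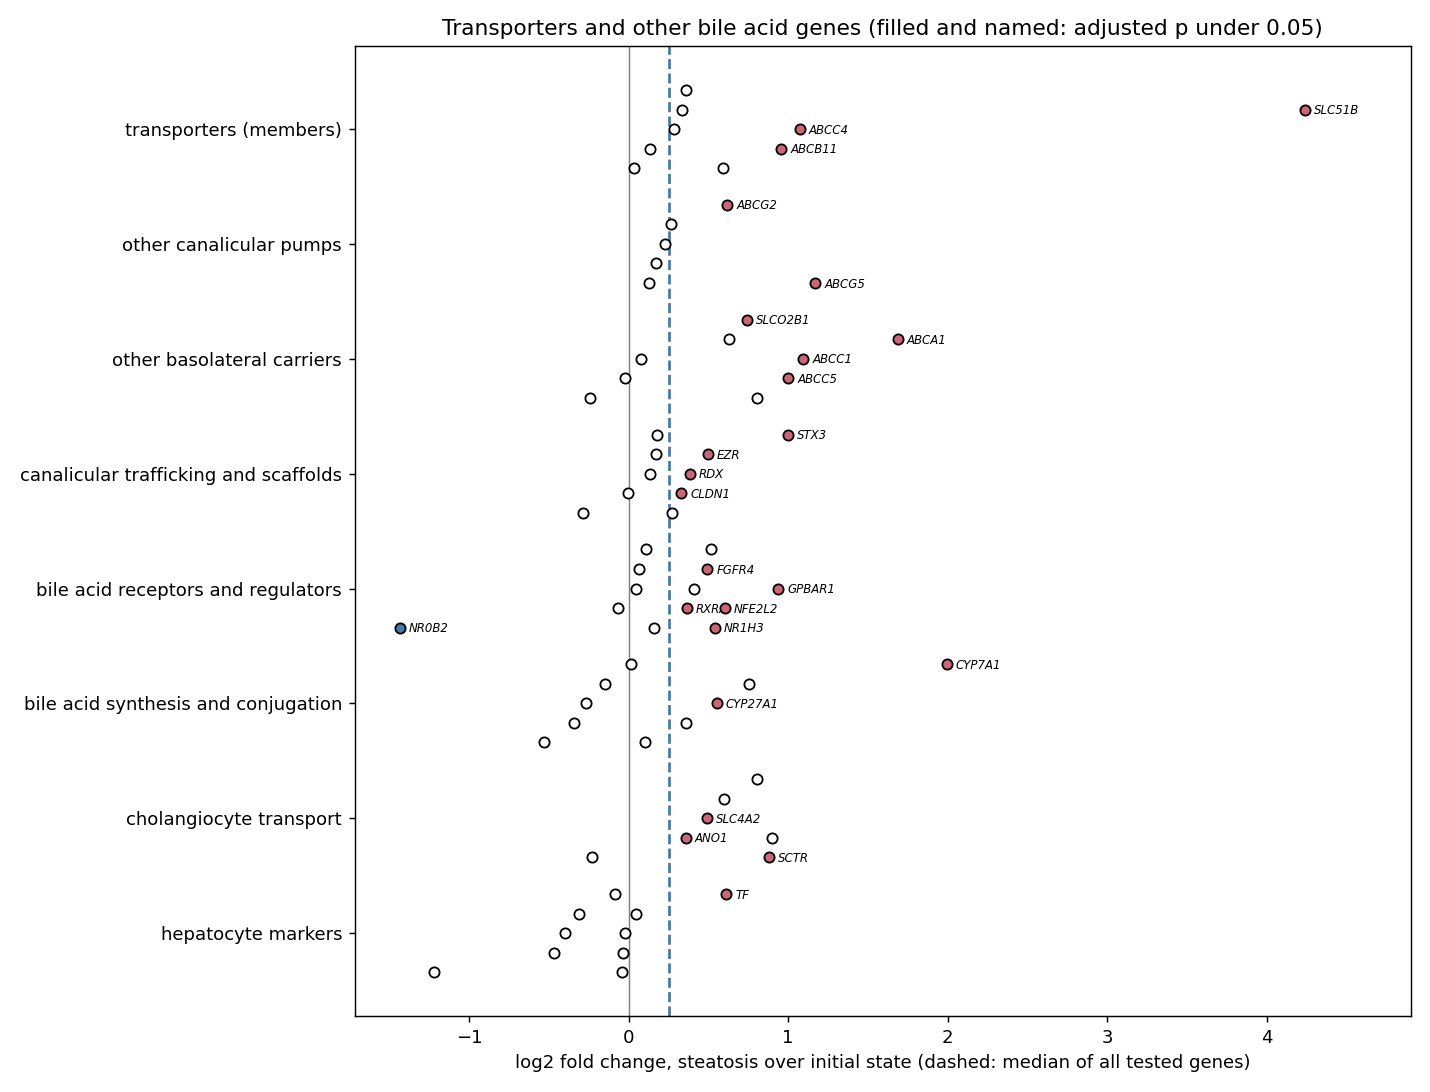
Log2 fold change of steatosis over the initial state (horizontal axis) for the tested genes of the transporters and of 7 further lists (rows, with points offset vertically for legibility), filled and named where the limma adjusted p is under 0.05 and with the median of all tested genes dashed. SLC51B at 4.24 and CYP7A1 at 1.99 lie farthest to the right, and NR0B2 at -1.43 is the filled gene on the left.

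SLC51A, SLC51B and ABCC3 are also expressed by cholangiocytes, the epithelial cells of bile ducts, and by enterocytes. In whole liver, more cells of a type and more RNA per cell cannot be told apart. Of 7 cholangiocyte markers tested, 3 rose and 0 fell, and the sum of the 9 listed was 11.54 to 27.56 FPKM in the initial state and 99.37 to 238.53 FPKM in steatosis, nearly all of it SPP1, which other cells express as well. KRT19 was at 8.02, 3.12, 3.56 and 1.20 FPKM in the initial pools and at 4.76, 2.20, 2.14 and 8.13 FPKM in steatosis, and EPCAM at 10.79, 2.92, 2.22 and 1.85 and then 10.15, 3.85, 4.61 and 6.47 FPKM. The log2 fold change of EPCAM was 0.77 (limma adjusted p = 0.277), and 1.32 (adjusted p = 0.0142) without pool 1 of the initial state, the pool with stomach transcripts. Of 7 genes of cholangiocyte transport tested, 3 rose and 0 fell, and FXYD2, with the highest mean of them, was at 8.87 to 14.75 FPKM and then 12.84 to 35.40 FPKM (log2 fold change 0.90, limma adjusted p = 0.0624, and 0.0321 with the replicate block). ANO1 rose, with a log2 fold change of 0.36 (limma adjusted p = 0.0482), but did not pass with median ratio scaling (adjusted p = 0.612). Without pool 1 of the initial state ANO1 did not pass (adjusted p = 0.0938), and SCTR alone of this list did (adjusted p = 0.0153). The part of bile duct cells in the SLC51A and SLC51B results was not tested. The ileal bile acid genes FABP6 and SLC10A2 were at most 0.12 and 0.04 FPKM in any library. Of the enterocyte markers, 2 were tested, of which VIL1 rose and APOA4, the most abundant and also made by hepatocytes, fell.

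Macrophage markers also moved with the groups. Of 10 tested, 7 rose and 0 fell, and their sum was 886 to 1137 FPKM in the initial state and 1872 to 2366 FPKM in steatosis, with GPNMB leading. Their part in the results of ABCC4, ABCC1, ABCC5 and ABCA1 was not tested. Of 10 hepatocyte markers, 1 rose, TF, and 0 fell, and their median log2 fold change was -0.064. Of 9 stellate cell markers, of which COL3A1 was the most abundant, 4 rose, and of 8 endothelial markers 2 rose, beside 26.7% of all tested genes. CLEC4G, the most abundant endothelial marker, was not among those that rose. Of the 7 stomach mucosa markers TFF1 was the most abundant, and of the skeletal muscle markers ACTA1. Immediate early genes, led by JUN, summed to 362.83 FPKM in initial pool 1, 43.05 to 117.92 in the other initial pools and 76.19 to 194.49 in steatosis. By limma 0 of 8 passed the test, and 0 had an unadjusted p under 0.05. Without pool 1 of the initial state JUN passed as higher, with a log2 fold change of 1.25 (limma adjusted p = 0.0219), and the others did not pass.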

How the data were processed

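Hepatic RNA from 8 pools of 2 pigs, 4 initial and 4 steatosis, was sequenced as paired reads of 100 bp. The authors filtered the reads, mapped them with HISAT2 2.0.4 to Sus scrofa 11.1, assembled transcripts with StringTie, and estimated expression with Bowtie2 2.2.5 and RSEM 1.2.12 (versions from the submitters' processing notes). The values deposited by the authors are FPKM, with no stated scaling between libraries, and were used as deposited. Comparisons of same-numbered pools by a Poisson method, which hold the authors' own fold changes and error rates, were not used, apart from the transcript length in bases that they list. FPKM values give no estimate of their counting error, so precision was taken from the spread between pools.

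Genes that reached 0.3 FPKM in 4 or more of the 8 libraries entered a limma 3.58.1 fit (R 4.3.3) of log2(FPKM + 0.1) that used the mean-variance trend and Benjamini-Hochberg adjustment. The limits were an adjusted p of 0.01 with a log2 fold change of 1, or an adjusted p of 0.05. Fold changes on this scale understate those of low genes. The fit was tested on simulated data. Single genes were compared by two-sided exact permutation tests. Python 3.11.15, numpy 2.4.6, pandas 2.3.3, scipy 1.17.1 and matplotlib 3.10.9 were used. Symbols came from the files, and 17778 of 18103 rows carried the ID of a RefSeq gene of Sscrofa11.1, which gave the coordinates. For TF, which has several rows, the most abundant was used. SLC47A1, SLCO1B1, SLC22A9, FGF19, CYP7B1, BAAT, KRT7, ALPI and MB were not analysed here, and 1 further gene considered for the trafficking list is not reported here.

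The members and lists were chosen with earlier results of these data known. Named genes are all members, genes of the other bile acid lists called by the first limits or, where fewer than 2 were, the 2 most abundant, the most abundant of each marker list, and the 3 most alike in deviation. A few others were named with their values known. The main fit compared the groups without pairing. The pool number was taken as a pairing only in the replicate block and in comparisons of pools of the same number. Deviations from the group means over 13175 genes correlated at 0.16, 0.35, 0.32 and 0.25 for pools 1 to 4. Pools of different numbers were not compared in this way, so these values do not show which pools share pigs. Alternatives were other scalings (common sum, upper quartile, median ratio), a pseudocount of 1, no filter, 0.3 FPKM in 7 of 8 libraries, the pool number as a replicate block, each library left out and other limits.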

Additional observations from a re-analysis of the deposited data

How the results depend on the processing

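The directions of SLC51B, ABCB11 and ABCC4 held in each refit that included them, as did an adjusted p under 0.01. SLC51B could not be fitted under the stricter filter. Of the transporters, 2 were higher by the limits of 0.01 and 1, and 1 was with upper quartile scaling, median ratio scaling, a pseudocount of 1 or the stricter filter. Leaving out 1 library gave 1 to 3, the 1 without initial pool 4. ABCB11 passed the fold limit only without initial pool 3. At an adjusted p under 0.05 there were 3, with 4 without the filter and 2 under the stricter one, and leaving out 1 library gave 3 to 4. With the pool number as a replicate block the transporters numbered 2 higher by the first limits and 4 by the second, through ABCC2, and no other call of a transporter changed. Over all genes the block gave 785 higher and 57 lower.

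Over all genes, 792 were higher and 44 lower. Upper quartile scaling gave 439 and 73, median ratio scaling 411 and 83, a pseudocount of 1 gave 395 higher, an adjusted p under 0.01 at any size gave 1696 and 98, and an adjusted p under 0.05 with the fold limit gave 76 lower. Leaving out 1 library gave 625 to 778 higher and 26 to 50 lower, with 28 lower without steatosis pool 2 and 26 without steatosis pool 4. Of the other bile acid genes 5 were higher and 0 lower. The higher count was 1 with upper quartile or median ratio scaling, 3 with a pseudocount of 1, 8 at any size, and 2 to 6 when 1 library was left out, with 3 without initial pool 4, steatosis pool 2 or steatosis pool 4 and 2 without steatosis pool 3. The lower count was 1 (NR0B2) with median ratio scaling, with the limit of 0.05, or without initial pool 4, and ran from 0 to 1 when 1 library was left out.

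Signs turned with upper quartile and median ratio scaling for SLCO1B3 (-0.10 and -0.14), ATP8B1 (-0.20 and -0.24), ABCB1 (-0.064 and -0.10) and HNF4A (-0.19 and -0.23). With 1 library left out ATP8B1 ran from -0.032 to 0.17, and it was negative without initial pool 1 (-0.015), initial pool 4 (-0.032), steatosis pool 1 (-0.016) or steatosis pool 2 (-0.023). The scalings remove the general shift by construction, and the cause of the other changes was not tested. Depth limits SLC51A most, as its initial levels stand for very few fragments.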

Other observations

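The families of both uptake carriers were looked at as a whole, after the values were seen. Of the SLC10 family, SLC10A3, an orphan member with no established bile acid transport, was at 4.08, 5.17, 5.11 and 3.67 FPKM in the initial pools and at 7.58, 8.23, 7.64 and 7.43 FPKM in steatosis, with no overlap. Its log2 fold change was 0.78 (SE 0.13, limma adjusted p = 0.00233), and 0.73 (adjusted p = 0.00605) without pool 1 of the initial state. Of all tested genes, 29.6% were higher without overlap and 26.7% were higher at an adjusted p under 0.05. SLC10A5 ran from 1.25 to 6.15 FPKM and from 3.84 to 6.53 FPKM, and SLC10A7 from 1.41 to 1.73 FPKM and from 1.88 to 3.05 FPKM, with limma adjusted p of 0.249 and 0.0647. SLC10A2, SLC10A4 and SLC10A6 stayed at or under 0.24 FPKM in every library.

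Of the SLCO family, SLCO1A2, the chromosomal neighbour of SLCO1B3, was at 29.14, 27.35, 30.08 and 27.12 FPKM in the initial pools and at 21.07, 27.44, 26.73 and 21.63 FPKM in steatosis. Its log2 fold change was -0.24 (limma adjusted p = 0.128), and -0.51 (adjusted p = 0.0156) with median ratio scaling, which called 9.74% of genes lower at an adjusted p under 0.05. SLCO2A1, a prostaglandin carrier, had a log2 fold change of -0.41 (adjusted p = 0.177), and of -0.68 (adjusted p = 0.0239) with median ratio scaling. SLCO3A1 did not pass (limma adjusted p = 0.525). SLCO4A1 missed the filter, at 0.04 to 0.13 FPKM initially and 0.14 to 0.29 FPKM in steatosis, without overlap. In the fit without a filter its limma adjusted p was 0.0265, and 18% of genes were called higher there under 0.05. SLCO4C1, SLCO5A1 and SLCO6A1 stayed at or under 0.2 FPKM in every library. Whether SLCO1A2 and SLCO2B1, with a log2 fold change of 0.74, differ in their response was not tested.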
